A study of Mus musculus with 12 samples.

Results

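A set of 10 receptor genes through which hematopoietic stem cells (HSCs) sense and hold on to the bone marrow niche was followed in HSCs of WT and Pon2-/- mice. They were the chemokine receptor Cxcr4 and 9 further homing and adhesion receptors listed beside it, namely Ackr3, Itga4, Itgb1, Itga6, Itgal, Cd44, Selplg, Esam and Jam3. The list was set by name, to ask whether the difference in Cxcr4 between genotypes was shared by other niche receptors. All 10 were among the 49585 genes with a count value in every sample, and 9 of them were among the 11848 genes that passed the filter on low counts and were tested. The study compared 6 WT (C57BL/6J) with 6 Pon2-/- mice, 10 to 14 weeks old, by RNA-seq. The Pon2-/- mice carry a gene trap, an inserted reporter cassette that interrupts the Pon2 transcript in every tissue, so the niche cells of these mice carry the same allele as the HSCs. PON2 is an intracellular enzyme with antioxidative functions. HSCs were sorted as lineage-negative, ckit+, Sca1+, CD150+ and CD135- cells, a gate the study describes as a mixture of long-term HSCs and of MPP2, a multipotent progenitor. Each sample held RNA of 80 cells of 1 mouse, amplified from wells of 10 cells, and the 6 samples of a genotype were separate mice.

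CXCR4 is the receptor for CXCL12, a chemokine made by stromal and endothelial cells of the marrow, and this axis retains HSCs in the niche and guides their homing after transplantation. ACKR3 binds the same chemokine without classical G protein signaling and scavenges it. Integrins are pairs of an alpha and a beta chain. ITGA4 with ITGB1 forms VLA-4, which binds VCAM1 and fibronectin, ITGA6 with ITGB1 binds laminin, and ITGAL with ITGB2 forms LFA-1, the leukocyte receptor for ICAM1. CD44 binds hyaluronan, and the product of Selplg, PSGL-1, binds selectins on the vessel wall during rolling. ESAM and JAM3 are immunoglobulin-type junction proteins that endothelial cells and HSCs share.

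The mouse promoters of both CXCL12 receptors are shown because these receptors share a ligand while their levels in these cells lay far apart. Each sequence is the 250 bases before the RefSeq transcription start in GRCm38.p6, read 5′ to 3′ along the gene. The Cxcr4 window is chr1:128592300-128592549 on the minus strand and the Ackr3 window is chr1:90203730-90203979 on the plus strand. Capitals mark CGCATGCG, the centre of the motif of the factor NRF1, and TATAAA, the TATA box, each searched on both strands.
Cxcr4: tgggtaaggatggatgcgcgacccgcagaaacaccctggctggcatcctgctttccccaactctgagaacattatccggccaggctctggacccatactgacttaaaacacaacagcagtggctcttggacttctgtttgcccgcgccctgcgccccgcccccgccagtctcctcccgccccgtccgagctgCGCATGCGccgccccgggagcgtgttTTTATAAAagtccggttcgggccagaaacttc
Ackr3: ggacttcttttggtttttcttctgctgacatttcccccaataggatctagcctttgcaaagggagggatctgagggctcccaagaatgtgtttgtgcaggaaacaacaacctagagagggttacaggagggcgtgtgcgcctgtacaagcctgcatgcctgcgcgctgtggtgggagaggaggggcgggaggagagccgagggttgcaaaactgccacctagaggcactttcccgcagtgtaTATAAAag
CGCATGCG stood 58 to 51 bases before the start of Cxcr4 and was found in 509 of 32851 promoter windows of this length (1.55%). TATAAA was found in 12.4% of the windows. The capitals in Cxcr4 hold TATAAA on the plus strand and, overlapping it, on the minus strand, whereas the match in Ackr3 lay 8 to 3 bases before the listed start. The Cxcr4 window had a GC content of 61.2% with 19 CpG and the Ackr3 window 54.0% with 7 CpG, against medians of 52.4% and 6 CpG over all windows. The table of promoters also held Itga4, Itgb1 and Cd44, so that 5 of the 10 receptors were matched. None of these 3 had either of those motifs. ACGTG, a form of the hypoxia response element core found in 16.6% of windows, was matched in Cd44 alone among the 5. The other form of that core, GCGTG, was not searched and can be read in both windows printed above. TGACNNNGC (the antioxidant response element core, in 10.2% of windows) was matched in Itgb1 alone.

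Total counts per sample were 12967791 to 24228280 in WT and 14671353 to 23122382 in Pon2-/-, with 13941 to 15656 genes with counts. The edgeR estimate of biological variation between mice was 99.2% of the mean (the common coefficient of variation), and the precision for each receptor is given by its own standard error. Values are given as CPM, counts relative to the normalized size of the library, and 3 counts corresponded to 0.124 to 0.231 CPM. Pon2, the inactivated gene, was measured at 56.4 to 202 CPM in WT and at 1.16 to 33.1 CPM in Pon2-/-, without overlap. The sort genes Kit, Ly6a (Sca1) and Slamf1 (CD150) had means of 475, 233 and 64.9 CPM in WT and 428, 298 and 77.7 CPM in Pon2-/-. Flt3, which encodes the CD135 used to gate cells out, was present at 31.3 and 48.3 CPM. A gene was called when edgeR's quasi-likelihood test gave an FDR (Benjamini-Hochberg) below 0.05 and the absolute log2 fold change was above 1, which held for 24 genes (0.203% of those tested).

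Cxcr4 showed higher levels in Pon2-/- HSCs, whereas the integrin chains of VLA-4 and of the laminin receptor, Cd44 and the junction genes did not differ detectably. Among the adhesion receptors, Itgal, the alpha chain of LFA-1, also had higher levels in Pon2-/- samples. None of the 10 receptors was called in edgeR. At an unadjusted p below 0.05 edgeR gave 1 of the 9 tested receptors, Cxcr4, with 3.13% of all tested genes below that value and 1.7% below it and higher in Pon2-/-. None of the 9 had genotypes without overlap, which 0.633% of all tested genes had. In the exact permutation test of single genes, 2 of 9 receptors, Cxcr4 and Itgal, were below 0.05, as were 5.87% of all tested genes. With limma voom it was 2 of 9 as well, with 6.36% of all tested genes below 0.05. Log2 fold changes of Pon2-/- against WT were positive for 8 of 9 receptors, as for 49.2% of all tested genes, with a median of 0.33 compared with −0.01 over all tested genes.

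**Figure D1:**
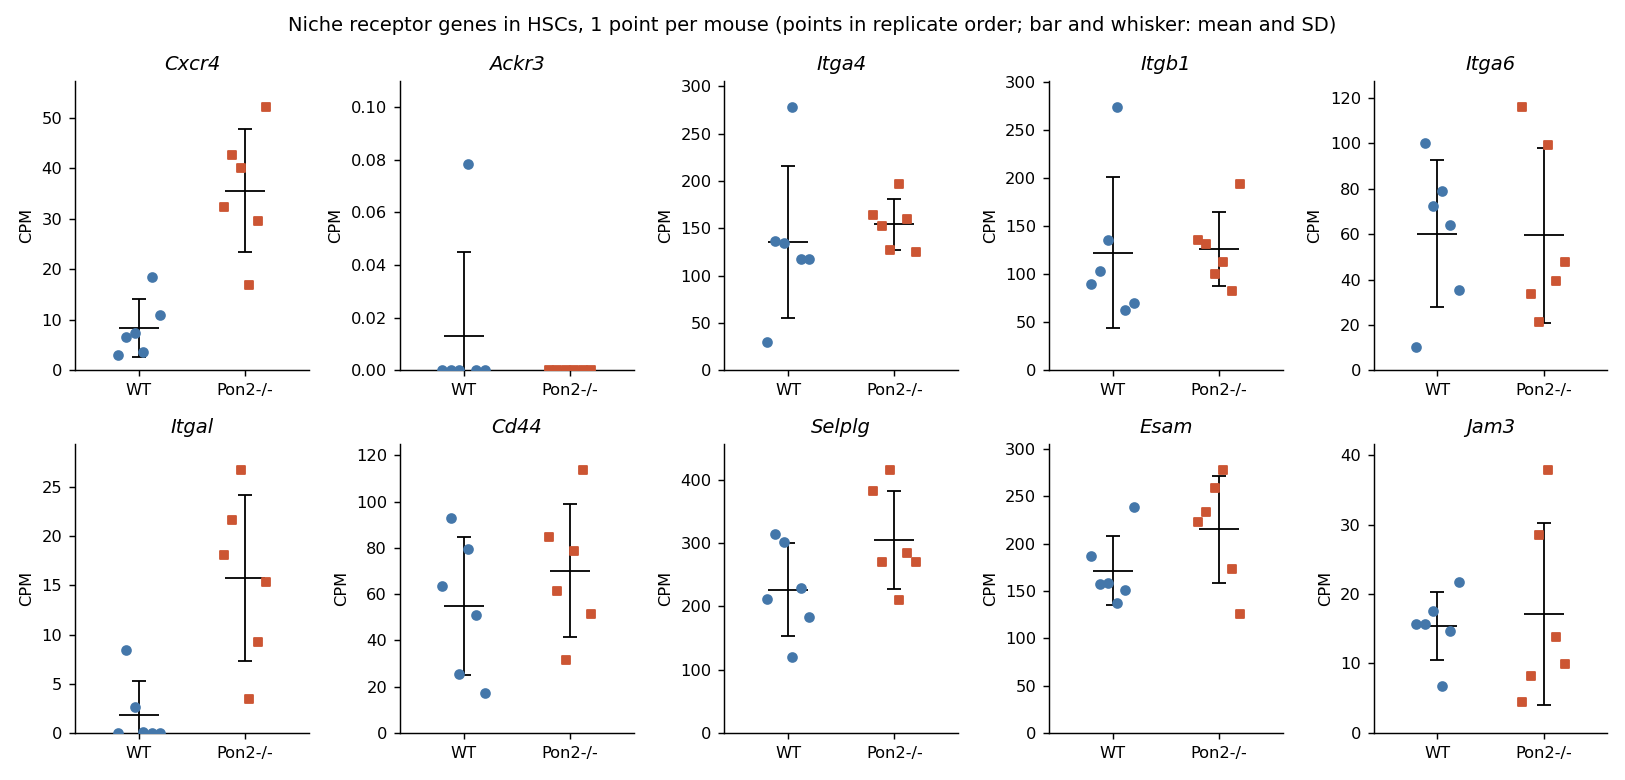
CPM of the 10 receptor genes in WT (blue circles) and Pon2-/- HSCs (red squares), 1 point per mouse in replicate order, with mean and SD of 6 mice, each axis from 0. The Pon2-/- samples of Cxcr4 lie between 16.8 and 52.0 CPM and the WT samples between 3.06 and 18.5 CPM, and Itgal is at 0 in 3 WT samples.

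Cxcr4 (ENSMUSG00000045382.6, chr1:128588199-128592293, minus strand, GRCm38) was measured at 3.06, 6.49, 7.34, 3.60, 18.5 and 10.99 CPM in WT replicates 1 to 6. In Pon2-/- replicates 1 to 6 it was at 32.2, 42.5, 40.1, 16.8, 29.6 and 52.0 CPM. The genotypes overlapped through a single pair of samples, as Pon2-/- replicate 4 lay below WT replicate 5, and 6 of 6 Pon2-/- samples were above the WT median. The means were 8.33 ± 5.75 CPM in WT and 35.5 ± 12.2 CPM in Pon2-/- (SD, n = 6), a 4.27-fold difference based on 857 and 3977 counts. In edgeR the log2 fold change was 2.09 with a standard error of 0.60, an unadjusted p of 0.00355 and an FDR of 0.747. The exact permutation test of log2 CPM, two-sided over all assignments of the 12 samples, gave a difference of 2.26 and p = 0.00433, where 0.00216 is the smallest p possible. DESeq2 with default settings gave a log2 fold change of 2.10 and an FDR of 0.000465 and called Cxcr4, with 1.77% of the genes it tested called, and without its Cook cutoff it called Cxcr4 with 5.21% of genes. The call of Cxcr4 therefore differed between these tools while the size of the difference did not. In bulk samples, fewer cells of a type and less RNA per cell cannot be told apart, which holds for every level given here.

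Ackr3 (chr1:90203980-90216751, plus strand) was practically absent, with 1 count in WT replicate 4 and none in the other 11 samples. It was not tested. A count of 0 allows up to 3 counts, between 0.124 and 0.231 CPM in these samples, and covers counting error only. The higher Cxcr4 level in Pon2-/- samples was thus measured in cells with almost no mRNA of the scavenging receptor in either genotype.

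Itga4 (chr2:79255426-79333123, plus strand), the alpha chain of VLA-4, was measured at 29.7, 137, 135, 278, 117 and 118 CPM in WT replicates 1 to 6. In Pon2-/- it was at 164, 153, 127, 196, 160 and 125 CPM. The highest and the lowest sample were both WT, and the Pon2-/- samples lay within their range. The log2 fold change was 0.18 with a standard error of 0.36 (edgeR, p = 0.622), and the exact permutation p was 0.452. The exons of Itga4 overlap Cerkl on the opposite strand over 1124 bases (8.04%), and reads of both cannot be told apart without strand information. The count of Cerkl over all 12 samples was 3937, compared with 13725 and 16872 counts of Itga4 in WT and Pon2-/-.

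Itgb1 (chr8:128685654-128733200, plus strand), the beta chain shared by VLA-4 and the laminin receptors, was at 89.8, 103, 135, 274, 62.8 and 69.9 CPM in WT. The Pon2-/- samples were at 135, 131, 100.5, 113, 82.3 and 194 CPM. WT replicate 4 was the highest sample for Itgb1 as it was for Itga4. Between genotypes Itgb1 had a log2 fold change of 0.04 with a standard error of 0.35 (edgeR, p = 0.903, exact permutation p = 0.619). Itga6 (chr2:71745616-71858416, plus strand), the alpha chain of the laminin receptor, was at 10.1, 100.3, 72.2, 78.9, 63.9 and 35.4 CPM in WT. Knockout samples of Itga6 were at 116, 33.7, 21.3, 99.4, 39.2 and 47.8 CPM and thus spread as widely. Its log2 fold change was −0.01 with a standard error of 0.53 (edgeR, p = 0.979, exact permutation p = 0.959). The standard errors of these 3 integrin genes, 0.35 to 0.53, leave room for differences of that size and larger in either direction.

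Itgal (chr7:127296260-127335138, plus strand), the alpha chain of LFA-1, was listed at 0, 8.44, 2.62, 0.0783, 0 and 0 CPM in WT replicates 1 to 6. In Pon2-/- it was at 18.0, 21.7, 26.7, 3.47, 9.25 and 15.3 CPM. It had counts in 3 of 6 WT samples, 226 in all, and in 6 of 6 Pon2-/- samples, 1779 in all. As for Cxcr4, Pon2-/- replicate 4 was the only knockout sample within the WT range, here below WT replicate 2. The means were 1.86 ± 3.39 and 15.7 ± 8.41 CPM (SD, n = 6), an 8.48-fold difference. The exact permutation test gave a difference of 4.98 in log2 CPM and p = 0.00433, whereas edgeR gave a log2 fold change of 3.08 with a standard error of 1.62, p = 0.0787 and an FDR of 1.00. The fitted log2 fold change of a gene at 0 in part of the samples depends on the fit and was 2.42 to 8.72 on the log2 scale over the alternatives tried, with 4.83 when WT replicate 2 was left out. Itgb2, the beta chain that pairs with ITGAL, was at 28.0 ± 16.1 CPM in WT and 27.4 ± 20.8 CPM in Pon2-/- (SD, n = 6), with a log2 fold change of −0.03 (exact permutation p = 0.669). Itgb7, the other partner of ITGA4, was at 23.9 ± 13.7 and 14.5 ± 11.6 CPM (SD, n = 6), with a log2 fold change of −0.72 (exact permutation p = 0.260). Pon2-/- replicate 3, the sample with the most Itgal, was listed at 0 for both Itgb2 and Itgb7.

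Cd44 (chr2:102811141-102901665, minus strand) was at 63.5, 92.7, 25.6, 79.7, 51.1 and 17.1 CPM in WT. The 6 knockout samples were at 84.7, 61.2, 31.6, 78.5, 114 and 51.5 CPM, and the ranges overlapped over most of their length. Its log2 fold change was 0.35 with a standard error of 0.43 (edgeR, p = 0.421, exact permutation p = 0.335). Selplg (chr5:113818536-113832644, minus strand), the gene of PSGL-1, was at 211, 314, 301, 120, 229 and 183 CPM in WT. Knockout samples of Selplg were at 382, 270, 415, 210, 285 and 270 CPM. Of these, 5 of 6 were above the WT median, and the log2 fold change was 0.43 with a standard error of 0.23 (edgeR, p = 0.0862, exact permutation p = 0.0952).

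Esam (chr9:37528078-37538319, plus strand), used as a surface marker of HSCs, was at 187, 157, 159, 138, 151 and 238 CPM in WT. In Pon2-/- it was at 222, 233, 258, 278, 173 and 126 CPM, so that both extremes were knockout samples. Its log2 fold change was 0.33 with a standard error of 0.20 (edgeR, p = 0.131, exact permutation p = 0.177). Jam3 (chr9:27097384-27155421, minus strand) was at 15.7, 15.7, 17.6, 6.81, 14.7 and 21.7 CPM in WT. Knockout samples of Jam3 were at 4.48, 8.19, 28.5, 37.9, 13.9 and 9.91 CPM, a wider spread in both directions. The log2 fold change in edgeR was 0.16 with a standard error of 0.66 (p = 0.816), and the exact permutation test gave a difference of −0.13 (p = 0.812). Over 36.2% of its exon bases Jam3 overlaps an antisense gene, Gm48796, which had 273 counts in the 12 samples.

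**Figure D2:**
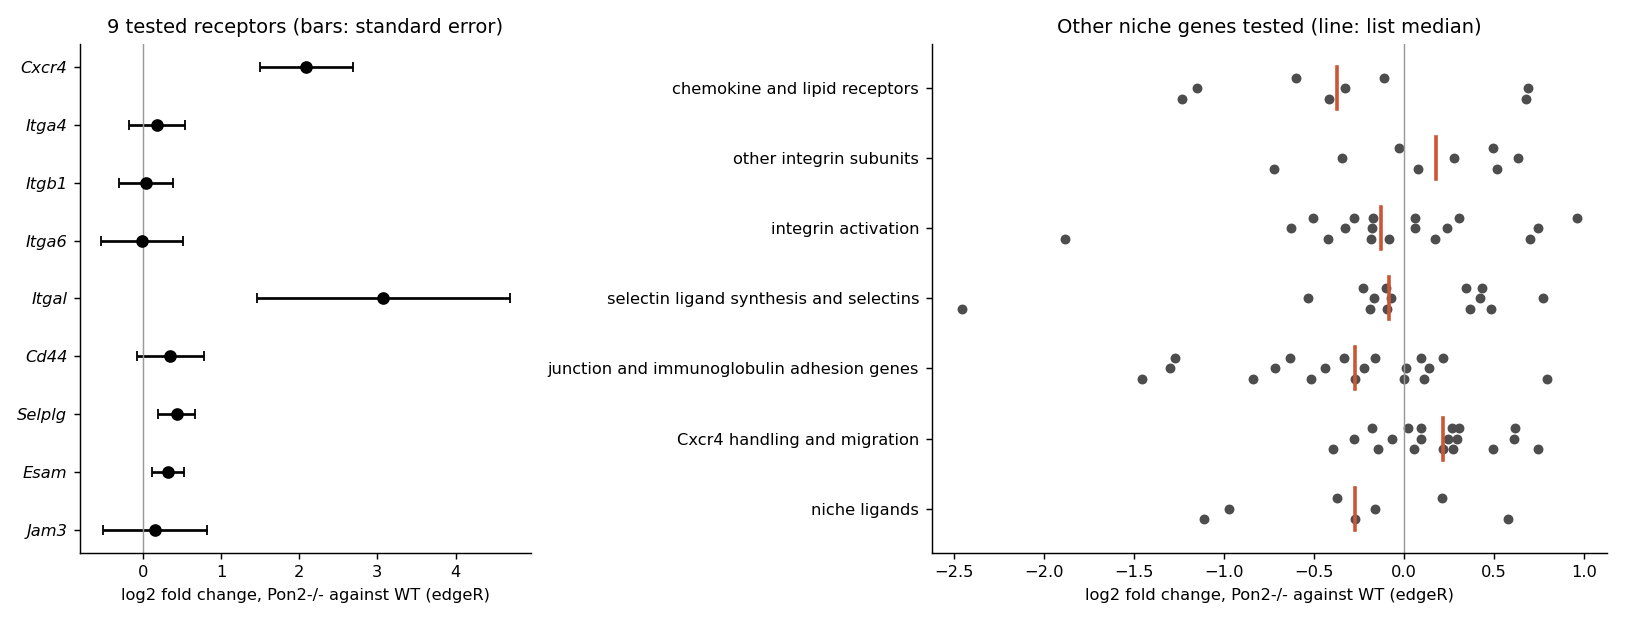
Log2 fold change of Pon2-/- against WT HSCs in edgeR for the 9 tested receptors with the standard error (left) and for the other niche genes tested, 1 point per gene, with the median of each list (right). Cxcr4 at 2.09 and Itgal at 3.08 stand above the other receptors, the error bar of Itgal is 1.62 to each side, and list medians lie between −0.37 and 0.22.

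The Cxcr4 difference was also set against each other receptor, on the log2 ratio of Cxcr4 to that receptor within each sample. Cxcr4 was chosen with its own difference known, and that difference enters every ratio, so the values are a description. Of 8 receptors compared, 6 had a ratio that differed between genotypes at an unadjusted exact permutation p below 0.05, and so did 69.1% of all tested genes set against Cxcr4 in the same way. The count of 6 of 8 is near that share and is no result about the receptors. It was 5 without the Pon2-/- libraries in which B lineage markers were above every WT sample. Ratios were higher in Pon2-/- samples by 1.80 against Selplg, 1.96 against Esam, 1.84 against Itga4, 2.08 against Itgb1, 2.22 against Itga6 and 2.39 against Jam3. Against Cd44 the ratio was higher by 1.79, with a large spread among WT samples (SD 1.64) and an exact permutation p of 0.0563. The ratio to Itgal went the other way, with a difference of −2.71 (exact permutation p = 0.0584), from a mean of 4.06 in WT to 1.34 in Pon2-/-. Its size depends on the prior count of 2 added before logs were taken, as Itgal was at 0 in 3 WT samples. With a prior count of 0.5, the log2 difference of Itgal alone was 6.11 in place of 4.98. Itgal was thus the only receptor of the 8 whose mean ratio to Cxcr4 went in that direction.

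**Figure D3:**
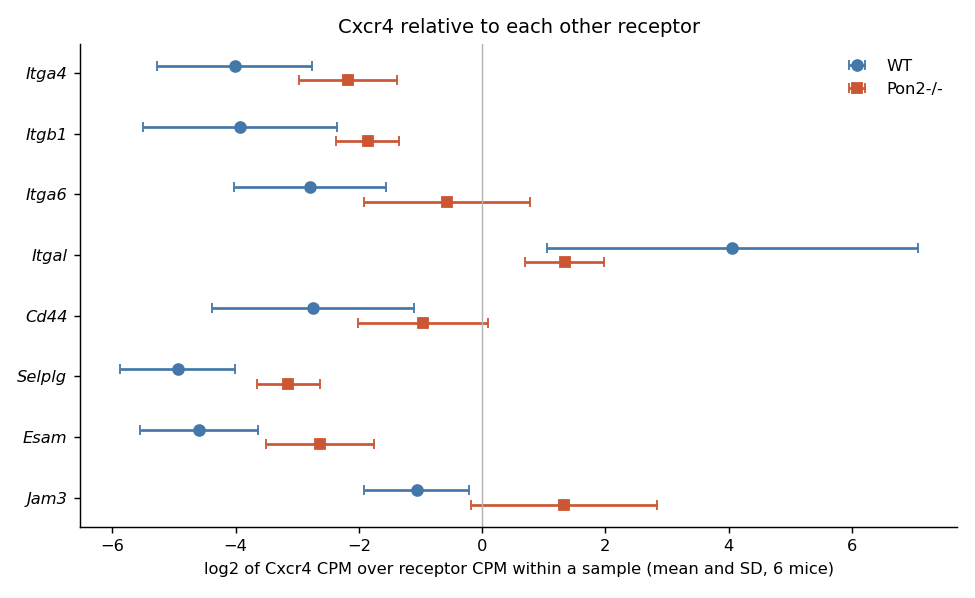
Log2 of Cxcr4 CPM over the CPM of each other receptor within a sample, mean and SD of 6 WT (blue circles) and 6 Pon2-/- mice (red squares). The Pon2-/- mean lies to the right of the WT mean by 1.79 to 2.39 for 7 receptors and to the left for Itgal, with a difference of −2.71. The size of the Itgal difference depends on the prior count of 2 added before logs were taken.

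Per length, which allows levels of different genes to be compared, the receptors ranged widely. Esam had the highest level with 67.5 ± 17.7 CPM per kb of exon (SD, n = 12), followed by Selplg with 62.2 ± 19.4 and Itgb1 with 30.4 ± 14.5. Then came Cxcr4 with 12.1, Itga4 with 10.4, Cd44 with 9.24, Itga6 with 6.63, Jam3 with 5.08 and Itgal with 1.34 CPM per kb, and Ackr3 was last. Among neighbours in this order, Selplg and Itgb1 differed in an exact sign-flip permutation test within samples (p = 0.00391), as did Itgb1 and Cxcr4 (p = 0.000488, the smallest possible) and Jam3 and Itgal (p = 0.00342). The other 5 neighbouring pairs, from Esam and Selplg to Itga6 and Jam3, did not differ beyond their spread, with exact permutation p-values from 0.102 to 0.738. Cxcr4 was the only receptor whose place moved by more than 1 rank between genotypes, from rank 8 in WT with 4.61 ± 3.18 CPM per kb to rank 4 in Pon2-/- with 19.7 ± 6.73 CPM per kb (SD, n = 6). The order depends on the length used, as with the longest transcript Selplg came before Esam, and Cxcr4 after Itga4 and Itga6, over all samples. The beta chain partners Itgb2 and Itgb7 were at 9.06 ± 5.81 and 6.95 ± 4.73 CPM per kb (SD, n = 12), above Itgal and below Itga4.

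**Figure D4:**
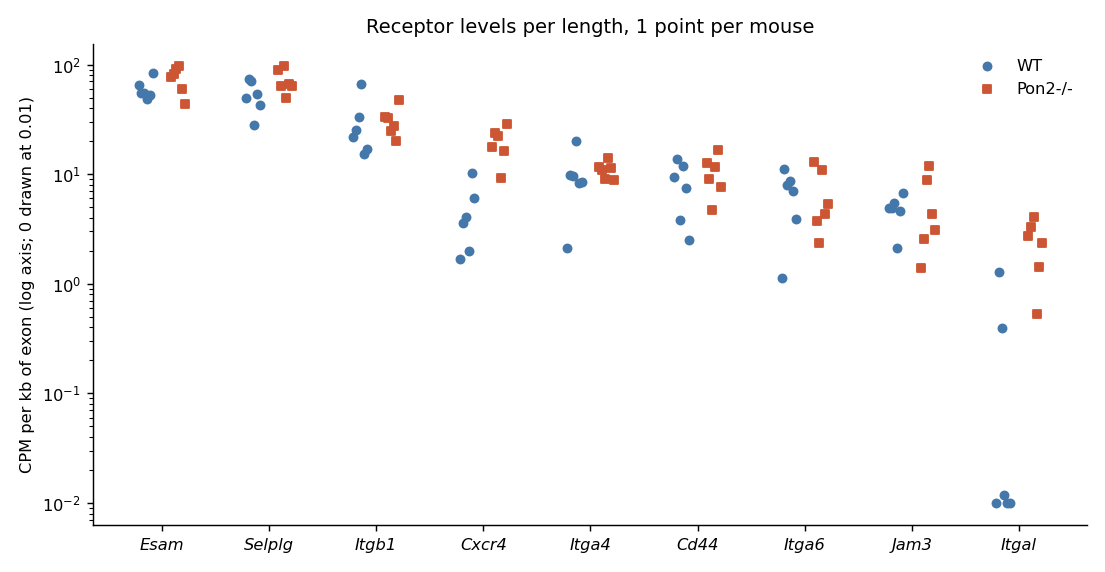
CPM per kb of exon (log axis, values of 0 drawn at 0.01) of 9 receptors in order of their mean, 1 point per mouse, WT as blue circles and Pon2-/- as red squares. Esam and Selplg lie highest at means of 67.5 and 62.2 CPM per kb, and Cxcr4 and Itgal have the largest log2 fold changes between genotypes, 2.09 and 3.08.

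The other genes of these pathways were taken as 7 lists with 147 genes, of which 91 were tested and 13 had no counts. None was called in edgeR, and 2 (2.20% of those tested) had an unadjusted p below 0.05, compared with 3.13% of all tested genes. Both belonged to the list of Cxcr4 handling and migration, with 19 of 21 genes tested and a median log2 fold change of 0.22. Rhoa, a small GTPase of the cytoskeleton, was at 101 ± 33.1 CPM in WT and 142 ± 20.4 CPM in Pon2-/- (SD, n = 6), with a log2 fold change of 0.49 (edgeR p = 0.0383, FDR 1.00, exact permutation p = 0.0281). Vav1, an exchange factor for small GTPases in blood cells, was at 91.9 ± 36.4 and 140 ± 32.0 CPM (SD, n = 6), with a log2 fold change of 0.61 (edgeR p = 0.0436, FDR 1.00, exact permutation p = 0.0455). Of genes that act on the receptor itself, the kinases Grk2, Grk3 and Grk6 had log2 fold changes of 0.02, 0.29 and 0.06 and the arrestins Arrb1 and Arrb2 of 0.25 and −0.07. The ubiquitin ligase Itch was at −0.39 with a standard error of 0.37, and exact permutation p-values of these 6 genes were 0.346 to 0.920. Dpp4, the peptidase that cleaves CXCL12, had 45.0 ± 23.0 and 75.3 ± 57.1 CPM (SD, n = 6), with a log2 fold change of 0.74 (exact permutation p = 0.524).

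In the exact permutation test of single genes, 7 of the 91 other niche genes (7.69%) were below an unadjusted p of 0.05, 4 higher and 3 lower in Pon2-/-, near the 5.87% of all tested genes. These genes were chosen for naming after their values were seen. St3gal6, a sialyltransferase of selectin ligand synthesis, was at 64.2, 65.7, 49.8, 23.6, 40.4 and 39.9 CPM in WT. In Pon2-/- it was at 35.3, 1.98, 0, 0, 14.5 and 0 CPM, and replicate 1 was the only Pon2-/- sample within the WT range. The exact permutation p of St3gal6 was 0.00433, and edgeR gave a log2 fold change of −2.45 with p = 0.113. Ptger4, a prostaglandin E2 receptor, was lower in Pon2-/- with means of 21.1 and 8.94 CPM (exact permutation p = 0.0411), as was the tetraspanin Cd81 with 648 and 556 CPM (exact permutation p = 0.0346). Parvg, a parvin that links integrins to actin, and Itgb1bp1, a binding partner of the ITGB1 tail, were higher in Pon2-/- (exact permutation p = 0.0238 and 0.0260). Their means were 67.3 and 109 CPM for Parvg and 35.0 and 68.1 CPM for Itgb1bp1 in WT and Pon2-/-. Rhoa and Vav1 were the remaining genes of the 7.

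The other lists held no gene below an unadjusted p of 0.05 in edgeR. Of the chemokine and lipid receptors, 8 of 25 were tested, with a median log2 fold change of −0.37, and S1pr1, the receptor for egress along sphingosine-1-phosphate, was at −0.42 (exact permutation p = 0.381). Cd74, which partners with CXCR4 in binding MIF, was at 224 ± 127 CPM in WT and 358 ± 132 CPM in Pon2-/- (SD, n = 6), with a log2 fold change of 0.68 (exact permutation p = 0.0563). For other integrin subunits (8 of 22 tested) the median was 0.18, and for integrin activation (18 of 22 tested) it was −0.13, with the adaptors Tln1 at 0.06 and Fermt3 at 0.30. Selectin ligand synthesis and selectins (14 of 17 tested) had a median of −0.08, and junction and immunoglobulin adhesion genes (19 of 26 tested) one of −0.27. Among 16 niche ligands, 7 were tested, with a median of −0.27. Cxcl12 had 87 counts in 2 WT samples and none in Pon2-/-. Vcam1, the ligand of VLA-4, was at 9.46 ± 7.27 CPM in WT and 4.83 ± 1.13 CPM in Pon2-/- (SD, n = 6), with a log2 fold change of −0.97 (exact permutation p = 0.262). Icam1, the ligand of LFA-1, was at 47.5 ± 14.1 and 42.5 ± 16.1 CPM (SD, n = 6), with a log2 fold change of −0.16 (exact permutation p = 0.502).

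Markers of other cell types were set beside these values, both of progenitors that share the gate and of mature B, T, myeloid and erythroid cells, against which the lineage antibodies of the sort are directed. Cd48, which marks MPP2 within the CD150+ gate and was not part of the sort, was at 57.8, 48.6, 72.1, 1.02, 33.7 and 35.0 CPM in WT. The Pon2-/- samples of Cd48 were at 153, 94.0, 205, 117, 165 and 61.3 CPM, and only replicate 6 lay within the WT range. Cd48, singled out after its values were seen, had a log2 fold change of 1.68 with a standard error of 0.62 (edgeR, p = 0.0167, exact permutation p = 0.00433), so that Cxcr4, Itgal and Cd48 were all higher in Pon2-/- samples. Within the knockout samples the order differed, as the sample with the most Cxcr4, replicate 6, had the least Cd48. The part of Cd48-positive cells in the receptor differences was not tested.

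**Figure D5:**
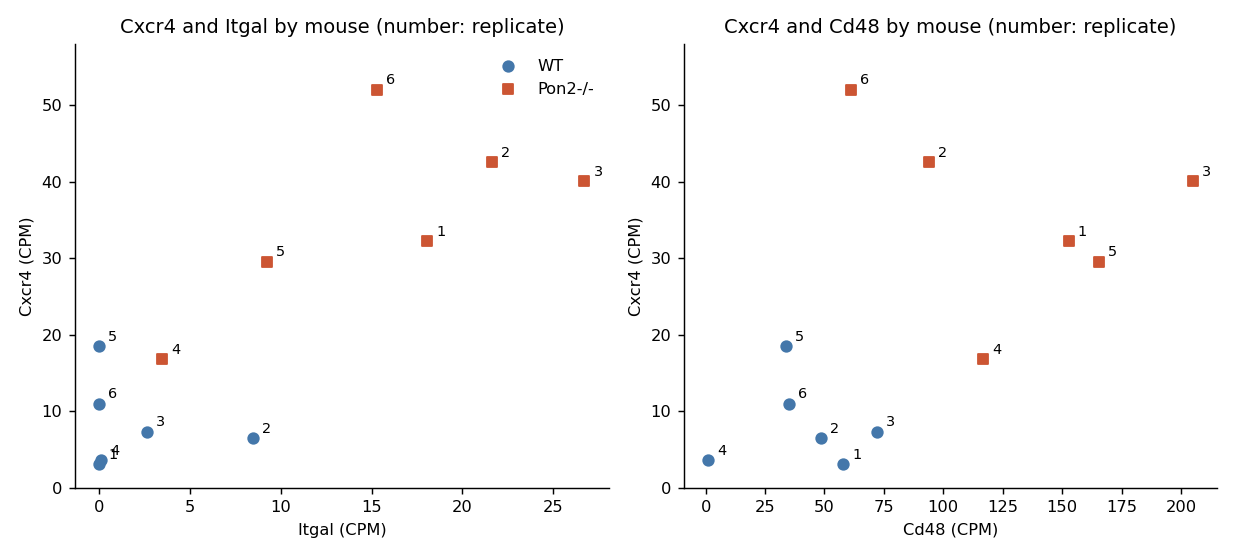
Cxcr4 CPM of each mouse against Itgal CPM (left) and Cd48 CPM (right), numbered by replicate, WT as blue circles and Pon2-/- as red squares. The Pon2-/- samples lie above and to the right of most WT samples in both plots, and replicate 6, highest in Cxcr4 with 52.0 CPM, is lowest in Cd48 of the Pon2-/- samples with 61.3 CPM.

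The summed level of 9 B lineage markers was 25.5 to 492 CPM in WT and 69.3 to 10437 CPM in Pon2-/- (exact permutation p = 0.197), and none of the 9 was at 0 in all samples. Pon2-/- replicates 3, 4 and 5 were above every WT sample, with 10437, 565 and 841 CPM, and Ighm reached 10299 CPM in replicate 3. Among WT samples, those with the most B lineage counts were replicate 5 with 492 CPM and replicate 2 with 446 CPM. WT replicate 5 was the highest WT sample for Cxcr4 and was at 0 for Itgal. WT replicate 2 was the highest WT sample for Itgal and had Cxcr4 at 6.49 CPM, below the WT median of 6.92 CPM. In Pon2-/- replicates 2 and 6, where the list summed to 115 and 69.3 CPM, Cxcr4 was at 42.5 and 52.0 CPM and Itgal at 21.7 and 15.3 CPM. Without Pon2-/- replicates 3, 4 and 5, the difference in log2 CPM was 2.57 for Cxcr4 (exact permutation p = 0.0119, the smallest that these samples allow) and 5.44 for Itgal (exact permutation p = 0.0238). This left out Pon2-/- replicate 4, the only knockout sample within the WT range for both genes, and kept WT replicates 2 and 5. The part of B lineage cells in the receptor differences was not tested. Of 10 T lineage markers, Cd3e, Cd8a, Trac, Trbc2 and Cd5 were at 0 in every sample, and the list summed to 0.0424 to 39.7 CPM in WT and 19.0 to 57.7 CPM in Pon2-/-. Of 12 granulocyte and monocyte markers the summed level was 878 to 12026 CPM in WT and 830 to 19221 CPM in Pon2-/- (exact permutation p = 0.688). Of the endothelial markers, Cdh5, Kdr, Plvap and Sox17 were at 0 in every sample, while Egfl7, Emcn and Tie1 reached 218, 150 and 101 CPM in WT and 268, 129 and 116 CPM in Pon2-/-. Of the stromal markers, Col3a1, Pdgfra and Bglap were at 0 in every sample. In the same list Col1a2 reached 29.1 CPM in WT and 60.4 CPM in Pon2-/-, and Pdgfrb 23.1 and 11.9 CPM. Summed over 10 genes each, endothelial markers, some of which HSCs express as well, were at 201 to 390 CPM in WT and 267 to 450 CPM in Pon2-/- (exact permutation p = 0.606) and stromal markers at 3.61 to 33.4 and 8.76 to 60.4 CPM (exact permutation p = 0.247). The 13 HSC and sort genes summed to 2496 to 3028 CPM in WT and 2634 to 3064 CPM in Pon2-/- (exact permutation p = 0.465). Summed levels of the 8 macrophage, 9 erythroid and 10 megakaryocyte markers had exact permutation p-values of 0.697, 0.219 and 0.898, with Slc4a1 and Car1 at 0 throughout. Of the 9 erythroid markers, 1, singled out after its values were seen, was at 6.11 to 38.1 CPM in WT and 0 to 1.11 CPM in Pon2-/- without overlap (log2 fold change −7.04, edgeR p = 0.000829, exact permutation p = 0.00216), and its part in the receptor differences was not tested.

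The sex of the mice is not given with the samples. Genes of the Y chromosome had 171 to 408 CPM in 7 samples, 3 WT and 4 Pon2-/-, and at most 0.0403 CPM in the others. Cxcr4 was at 3.06 to 7.34 CPM in WT and 32.2 to 42.5 CPM in Pon2-/- among samples without Y-linked counts, and at 3.60 to 18.5 and 16.8 to 52.0 CPM among those with them. The exact permutation p was 0.1 in the former, the smallest that 3 against 2 samples allow, and 0.0857 in the latter. With assignments permuted within both classes together, the exact permutation p was 0.00571 for Cxcr4, 0.00571 for Itgal and 0.0486 for Selplg. For the other tested receptors it was 0.129 to 0.903. No share of all tested genes was taken for this test, so the number of receptors below 0.05 is no result about the list. Itgal was at 0 to 8.44 CPM in WT and 18.0 to 21.7 CPM in Pon2-/- without Y-linked counts, and at 0 to 0.0783 and 3.47 to 26.7 CPM with them. The genotype difference of Jam3 (Pon2-/- minus WT) was −1.41 on the log2 scale without Y-linked counts and 0.59 with them. Itga4 (0.95 and −0.07) and Itga6 (0.58 and −0.33) also had opposite signs in samples without and with Y-linked counts.

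Genes that varied with Cxcr4 from mouse to mouse were sought after the mean of each genotype was subtracted, over 12 samples. The most similar of the tested genes were Plaa, Dr1 and Psme2, with Pearson's r of 0.97, 0.93 and 0.93 and Spearman's coefficients of 0.94, 0.92 and 0.93. Their permutation p-values for r, adjusted over all tested genes, were 0.118, 0.267 and 0.379 (raw 2e-05, 9e-05 and 0.00016, 100000 permutations within genotype), so none passed. Without WT replicates 5 and 1, the samples farthest from the median of Cxcr4, r was 0.97, 0.86 and 0.85. None of the 3 differed between genotypes as Cxcr4 did, with log2 fold changes of −0.07, −0.05 and −0.16 (exact permutation p = 0.913, 0.872 and 0.368). For the other receptors r ranged from −0.48 for Cd44 to 0.36 for Selplg, with adjusted permutation p-values from 0.965 to 0.995. These values rest in part on WT replicates 5 and 1, as without them r was −0.77 for Itga4 (0.08 with them), −0.64 for Cd44 and −0.59 for Itga6 (0.07 with them). For Cd44, Spearman's coefficient was −0.68 with a raw permutation p of 0.0325 and an adjusted p of 1.00. Itgal, the receptor with the other large difference between genotypes, had a Pearson's r of 0.10 and a Spearman's coefficient of 0.03 with Cxcr4 within genotypes (permutation p = 0.819 and 0.946).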

How the data were processed

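Smart-seq2 libraries of sorted HSCs from 12 mice were analysed. As described by the authors, reads were trimmed with Trimmomatic 0.36, checked with FastQC 0.11.5, mapped to GRCm38.p5 with STAR 2.5.3a and counted per gene of GENCODE M12. The deposited values are raw counts per gene, taken as unstranded, with no normalization and no filter on low counts. The authors' DESeq2 results were not used. For 49326 of 49585 genes a name was found in GENCODE M21. In each file 1 row names no gene and was left out.

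Counts were tested in R 4.3.3 with edgeR 4.0.16 (TMM, filterByExpr, quasi-likelihood F-test, genotype as the only term) over all genes, with linear algebra on 1 thread, and the script was tested on simulated data. Single values were compared by two-sided exact permutation of log2 CPM with a prior count of 2 (scipy 1.17.1). Ackr3, with 1 count, was left out of the ratios to Cxcr4, which makes 8 comparisons in place of the 9 planned. Fits with DESeq2 1.42.0 and limma 3.58.1 voom, other normalizations and filters, a replicate block, a Y-linked covariate and leaving out each sample were alternatives. Leaving out the Pon2-/- libraries whose summed B lineage markers were above every WT sample and splitting by Y-linked counts were added after the data were seen.

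The receptors, lists and tests were chosen with earlier results of these data known. Named genes were the 10 receptors, Pon2, list genes with an unadjusted p below 0.05, Itgb2, Itgb7, Cxcl12, Vcam1, Icam1, the sort genes and the 3 genes most like Cxcr4. Other genes were named after their values were seen. Some marker genes are not reported here. Promoter sequences are those of RefSeq (GRCm38.p6). Depth was 12967791 to 24228280 counts per sample, and limits from a count of 0 cover counting error only, as amplified reads are not independent molecules.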

Additional observations from a re-analysis of the deposited data

Results flagged for a closer look

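Samples far from the others of their genotype were looked for in 54 groups of 6 samples. For normally distributed values, chance alone is expected to mark about 1 in 20 groups. CPM values are skewed and partly 0, so the share marked by chance is not known here. Among the receptors, WT replicate 4 stood apart for Itgb1 with 274 CPM, where the next sample had 135 CPM, and for Ackr3 with 0.0783 CPM, its only count. WT replicate 2 stood apart for Itgal with 8.44 CPM, above 2.62 CPM in the next. Pon2-/- replicate 5 had Pon2 at 1.16 CPM, below the 28.4 CPM of the next. Cxcl12 was at 4.28 CPM in WT replicate 5 and at 1.13 CPM in the next. Slamf1 was at 158 CPM in Pon2-/- replicate 2, next to 83.6 CPM. Ighm was at 10300 CPM in Pon2-/- replicate 3, next to 169 CPM.

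The genotype difference of Jam3 depended on the Y-linked counts of the samples. It was larger by 2.01 on the log2 scale with Y-linked counts (0.59) than without them (−1.41), with an exact permutation p of 0.0371 for that difference. Jam3 was the only receptor below 0.05 of the 9 tested in this way, and only 2 Pon2-/- samples were without Y-linked counts.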

How the results depend on the processing

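Cxcr4 was higher in Pon2-/- under every alternative run, with a log2 fold change of 1.65 to 2.72. It was called only by DESeq2 (2.10, FDR 0.000465 with default settings and 0.000132 without the Cook cutoff), where it was the 1 receptor called. Leaving out each replicate in turn gave a log2 fold change of 1.92 to 2.495 (edgeR FDR 0.265 to 1.00). The number of all genes called was 24 in edgeR, 8 without a filter, 304 with DESeq2, 966 without its Cook cutoff, 6 without the Pon2-/- libraries with B lineage markers above every WT sample, and 1 and 4 in samples without and with Y-linked counts alone. Receptors at an unadjusted p below 0.05 numbered 1 in edgeR and 2 with a minimum of 10 reads in each sample of either genotype, with DESeq2 (also without the Cook cutoff), with limma voom and in samples with Y-linked counts alone. With the Y-linked covariate there were 3, and without each replicate in turn 1 to 3 (3 when WT replicate 2 was dropped, 2 when WT replicate 6 or either of Pon2-/- replicates 4 and 6 was). Of all tested genes, 3.13% were below that value in edgeR and 6.36% with limma voom. That share was not taken for the other fits, so these counts are no result about the receptors. For Itgal, limma voom gave a log2 fold change of 6.02 (FDR 0.200) and DESeq2 3.07 (FDR 0.564). Other niche genes were called only by DESeq2 without the Cook cutoff, which called 5 (Prkcz, Fut4, Cx3cr1, Ccr2 and Ccr7) and 5.21% of all genes it tested. None of these 5 passed the filter on low counts of the main fit. In each, the SD was larger than the mean in the genotype with the higher level, such as 13.5 ± 33.0 CPM for Ccr2 in WT. The causes of these shifts were not tested. Single-gene permutation p-values fell below 0.05 for Selplg without WT replicate 2 (0.0498) and for Itga4 without WT replicate 4 (0.0238). For Esam this held without Pon2-/- replicate 6 (0.0281). For Jam3 it held without the libraries with B lineage markers above every WT sample (difference −1.01, p = 0.0357, exact permutation test). Each of these receptors was run under 17 alternatives and was below 0.05 in 1 of them. No share of all tested genes was taken for these settings, so these values are no result about the receptors.

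Samples of the same replicate number did not deviate together (r 0.000932 to 0.043), and only replicate 2 correlated best with its own number. With a replicate block edgeR called 5 genes and gave Cxcr4 a log2 fold change of 2.30 (FDR 1.00). It had 3 receptors at an unadjusted p below 0.05 (Cxcr4, Itgal and Selplg), with no share of all tested genes taken for this fit. Under the block 4 of 8 ratios to Cxcr4 differed in place of 6. The block allows only 64 assignments, with 0.03125 as the smallest exact permutation p, and no share of all genes was taken for it. With the longest transcript as gene length, 3 of 8 neighbouring receptors differed in level as before, in another order. Depth limits what can be said of Ackr3 and, in WT samples, of Itgal, with counts at or near 0.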
